A study of Mus musculus with 18 samples.

Results

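The comparison covered all 12 mouse ESC libraries of the 18 libraries of the series, and its members were chosen from the sample titles alone. The 6 OSKM-ESC libraries and the 6 2iL-ESC libraries came from days 18, 25 and 38, with 2 libraries per medium and day. Both groups were 1 line, Tet-On-OSKM/Oct4-GFP, on a mixed background labelled as a cross of (C57BL/6 x 129S4/SvJae)F1 with (CBA/CaJ X C57BL/6J)F2. The line carries M2rtTA in Rosa26, a single polycistronic OSKM transgene (Oct4, Sox2, Klf4 and c-Myc) in the Col1a1 locus and GFP under the Oct4 distal promoter. 2iL-ESCs grew in N2B27 with PD0325901 (a MEK inhibitor), CHIR99021 (a GSK3 inhibitor) and LIF, without DOX (doxycycline), and thus carried the transgene uninduced. OSKM-ESCs had been moved to N2B27 with DOX, which turns the transgene on, without the inhibitors and LIF. It had been derived and kept on mitomycin-treated MEF (mouse embryonic fibroblast) feeder cells. Induction of the transgene and loss of each inhibitor and of LIF came together and cannot be told apart here.

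In mouse ESCs, blocking MEK stops the FGF-driven ERK cascade that moves cells out of the naive state, blocking GSK3 stabilizes beta-catenin, and LIF acts through its receptor, JAK kinases and STAT3. ERK, beta-catenin and STAT3 each switch on well-known target genes, including inhibitors of their own pathways. Naive ESCs in 2iL are also known for low DNA methylation and for rare cells with a program of the 2-cell embryo. Cells that leave the naive state pass through a formative state, marked by genes such as Otx2, Pou3f1 and Fgf5, toward the primed state of the later epiblast.

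Both groups carried the markers of ESCs. The summed level of 10 ESC markers was 1497.3 to 2305.0 FPKM in OSKM-ESCs and 2916.8 to 3313.7 FPKM in 2iL-ESCs, against at most 2.1 FPKM in the 2 MEF libraries. The sum includes Pou5f1 (Oct4) and Sox2, whose reads pool the induced transgene with the endogenous genes. Pou5f1 alone had 586 to 810 FPKM in OSKM-ESCs. Among the other markers, Nanog and Dppa5a were lower and Epcam was higher in OSKM-ESCs on every day. FPKM counts fragments per kilobase of gene, scaled to the size of the library. The 18 fibroblast markers summed to 29.0 to 49.7 FPKM in OSKM-ESCs, with the highest sums at day 18, to 8.6 to 13.6 FPKM in 2iL-ESCs and to 1997.5 to 2271.5 FPKM in MEF cells, and each was detected in some library of each group. Genes of chromosome 8 lay lower in OSKM-ESCs on every day, with a median log2 difference of -0.19, and those of chromosome 12 lay higher at day 38, with a median of 0.30. Of 9 genes tested on chromosome Y, 6 were lower and 1 was higher on every day, against 3.02% and 3.24% of all genes. The summed level of the 9 overlapped, with 37.9 to 81.3 FPKM in OSKM-ESCs and 61.4 to 91.9 FPKM in 2iL-ESCs. Eif2s3y, a translation factor gene among the 6 lower, had 1.25 to 3.60 FPKM in OSKM-ESCs and 20.9 to 29.5 FPKM in 2iL-ESCs. The part of the shifts of chromosomes 8, 12 and Y in the results was not tested beyond counts without these chromosomes. Depth in reads is unknown. The number of genes over 1 FPKM was 11303 to 12008 by library, and no replicate pair shared identical values.

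OSKM-ESCs and 2iL-ESCs differed on every day in 877 of 14016 genes tested. A gene was called on a day when limma's adjusted p was under 0.05 and the difference in log2(FPKM + 1) was over 1, and called on every day when this held with the same sign at days 18, 25 and 38. By this rule 454 genes were higher in OSKM-ESCs (3.24% of genes tested) and 423 were lower (3.02%). Over all days, with day as a covariate, 968 genes were higher (6.91%) and 806 lower (5.75%). Single days gave 1240 higher (8.85%) and 854 lower (6.09%) at day 18, 851 (6.07%) and 1146 (8.18%) at day 25, and 1368 (9.76%) and 889 (6.34%) at day 38. Without the fold criterion, 1930 genes were higher on every day (13.8%) and 1602 lower (11.4%). The size of the difference varied between days in 2044 genes (14.6%), by an F test of the interaction with an adjusted p under 0.05 and a range over 1 of the daily log2 differences. The libraries of the media did not overlap in 2053 genes higher in OSKM-ESCs (14.6%) and in 1685 lower (12%). In genes called on every day, the call itself all but fixes such a gap, so the gap adds no support for them. The median log2 difference over all genes was 0.03. Without genes of chromosomes 8, 12 and Y, 413 genes were higher and 374 lower on every day.

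Levels in MEF cells were set beside these genes. In 206 of the 454 genes higher on every day (45.4%), the MEF level exceeded that of OSKM-ESCs, against 38.1% of all genes tested, and 248 genes remained without them. Of the 423 genes lower on every day, 400 remained without those whose MEF level exceeded that of both media.

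**Figure D1:**
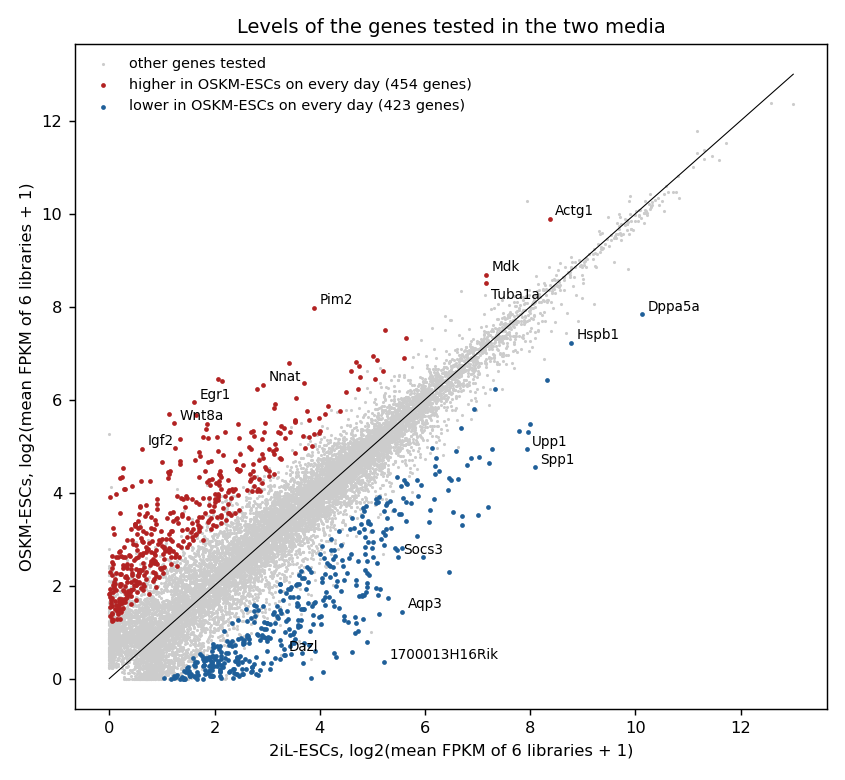
Mean level of each gene tested in OSKM-ESCs (vertical axis) against 2iL-ESCs (horizontal axis), as log2(mean FPKM of 6 libraries + 1). Red points are the 454 genes higher and blue points the 423 genes lower in OSKM-ESCs on every day, grey points are the other genes tested, and the line marks equal levels.

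The 10 most abundant genes higher on every day encode parts of the cytoskeleton and of cell contacts, secreted factors and others. Actg1, which encodes cytoplasmic gamma-actin, ranged from 886 to 1108 FPKM in OSKM-ESCs (median 909) and from 239 to 374 FPKM in 2iL-ESCs (median 366), a log2 difference of 1.54 ± 0.12 (SE; limma adjusted p = 7.06e-07) over all days. It was the only one of the 100 most abundant genes to rise by this rule. Tuba1a, an alpha-tubulin, had 299 to 412 FPKM (median 366) against 100 to 171 FPKM (median 153). Tpm1, a tropomyosin that coats actin filaments, had 110 to 225 FPKM (median 196) against 33.4 to 39.3 FPKM (median 37.2). Neither gene overlapped between media. Epcam, an epithelial adhesion protein, had 96.95 to 152 FPKM (median 110) against 39.5 to 53.7 FPKM (median 48.6). Gja1, the gap junction protein connexin 43, had 94.8 to 133 FPKM (median 116) against 24.5 to 48.4 FPKM (median 29.2). Actg1, Tuba1a, Tpm1 and Gja1 had mean levels in MEF cells above those in OSKM-ESCs, at 1624, 421.8, 979.4 and 126.3 FPKM, and Epcam did not.

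The second most abundant of the 10 was Mdk. Mdk, the heparin-binding growth factor midkine, had 368 to 476 FPKM in OSKM-ESCs (median 391.9) and 133 to 148 FPKM in 2iL-ESCs (median 145), a log2 difference of 1.52 ± 0.06 (SE; limma adjusted p = 2.89e-09) that ranged only from 1.37 to 1.69 between days. Lefty1, a secreted inhibitor of NODAL, had 83.4 to 142 FPKM (median 106) against 8.93 to 39.5 FPKM (median 24.9). Pim2, a serine/threonine kinase, had 162 to 405 FPKM (median 198) against 6.68 to 21.5 FPKM (median 13.5), and its log2 difference was 3.05 at day 18, 5.64 at day 25 and 3.64 at day 38. Pim2 thus peaked at day 25, and all its OSKM libraries lay above all its 2iL libraries. Pcbp4, an RNA-binding protein, had 135 to 185 FPKM (median 157) against 42.4 to 53.5 FPKM (median 50.9). Peg10, an imprinted gene derived from a retrotransposon, had 74.0 to 148 FPKM (median 142) against 25.8 to 35.9 FPKM (median 33.3).

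The most abundant gene lower on every day was Dppa5a. Dppa5a, an RNA-binding protein of pluripotent cells, had 133 to 299 FPKM in OSKM-ESCs (median 258) and 922 to 1320 FPKM in 2iL-ESCs (median 1091), a log2 difference of -2.35 ± 0.16 (SE; limma adjusted p = 2e-07). It was the only one of the 100 most abundant genes to fall by the 2-fold rule on every day. Fbxo15, a long-used ESC reporter gene, had 18.0 to 40.5 FPKM (median 31.1) against 111 to 177 FPKM (median 163). Spp1, the secreted matrix protein osteopontin, had 12.1 to 31.9 FPKM (median 25.5) against 257 to 282 FPKM (median 269), and 802 FPKM in MEF cells. Rhox5, an X-linked homeobox gene, had 17.6 to 93.2 FPKM (median 23.4) against 168 to 405 FPKM (median 220). Its log2 difference was -4.03 at day 18, -1.30 at day 25 and -3.07 at day 38.

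The other 6 of the 10 included Hspb1 and Ckb, next to Dppa5a in abundance. Ckb, the brain-type creatine kinase, had 40.2 to 110 FPKM in OSKM-ESCs (median 98.4) and 232 to 400 FPKM in 2iL-ESCs (median 329). Upp1, which cleaves uridine, had 22.0 to 43.6 FPKM (median 25.5) against 131 to 335 FPKM (median 277). Slc29a1, a nucleoside transporter, had 47.5 to 67.8 FPKM (median 52.7) against 110 to 130 FPKM (median 122). Both are genes of nucleoside use. Lap3, an aminopeptidase, had 62.8 to 87.8 FPKM (median 74.7) against 140 to 176 FPKM (median 166). Hspb1, a small heat shock protein, had 104 to 200 FPKM (median 145) against 391 to 529 FPKM (median 414). Mylpf, a regulatory light chain of fast muscle myosin, had 15.2 to 37.5 FPKM (median 23.3) against 94.8 to 234 FPKM (median 131). All 6 of these genes kept apart in every library, which their selection all but fixed.

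**Figure D2:**
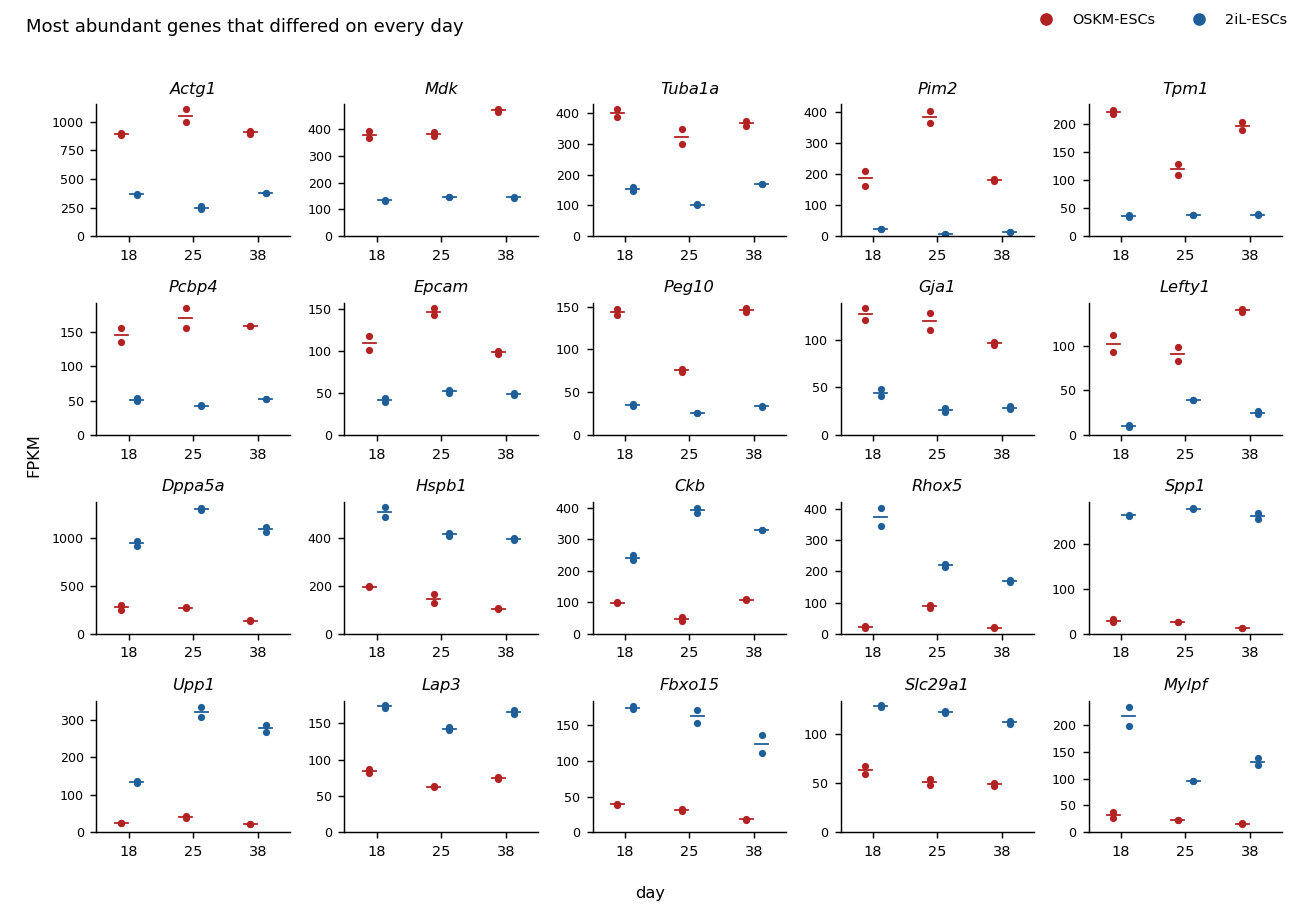
FPKM (vertical axes, from 0) by day (horizontal axes) of the 10 most abundant genes higher and the 10 most abundant genes lower in OSKM-ESCs on every day, without the 8 genes of the study's heatmap. Each point is 1 library, red for OSKM-ESCs and blue for 2iL-ESCs, and bars are means of the 2 libraries. The media do not overlap in any of the 20 genes, which their selection all but fixed. Pim2 and Rhox5 change with day.

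Most of the 100 most abundant genes, which had a mean of at least 588 FPKM, differed little. In 96 of them the difference over all days stayed within 2-fold. Without the fold criterion, 4 were higher on every day (Actg1, Pfn1, Tpt1 and Eif5a) and 9 lower (Dppa5a, Aldoa, mt-Co1, Ldha, Rpl13, Hsp90aa1, Rps24, Atp5b and Rpl13a). Pfn1, the actin-binding profilin, had 1149 to 1594 FPKM in OSKM-ESCs (median 1298) and 808 to 1068 FPKM in 2iL-ESCs (median 974). Aldoa, a glycolytic aldolase, had 399 to 526 FPKM (median 447) against 592 to 1130 FPKM (median 1054), a log2 difference of -1.01 ± 0.10 (SE; limma adjusted p = 5.82e-06). mt-Co1, a subunit of cytochrome oxidase encoded in mitochondrial DNA, had 3940 to 5949 FPKM (median 5571) against 6526 to 9091 FPKM (median 8286). Tpt1, a growth-associated protein, had 814 to 1371 FPKM (median 853) against 631 to 905 FPKM (median 650), so its libraries overlapped. These counts were fragile: the 4 became 1 without either OSKM-ESC library or either 2iL-ESC library of day 38 and 2 without any of the other 2iL-ESC libraries, and the 9 became 4 to 6 without single 2iL-ESC libraries of days 18 and 25, the first 2iL-ESC library of day 38, or the first OSKM-ESC library of day 25 or of day 38.

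Targets of MEK/ERK that were called on every day were all higher in OSKM-ESCs. Of 21 tested, 9 were higher and 0 lower on every day, against 3.24% and 3.02% of all genes, and their median log2 difference was 1.15, against 0.03 over all genes. Egr1, an immediate-early transcription factor, had 30.0, 37.3, 59.0, 51.7, 93.2 and 91.9 FPKM in OSKM-ESCs from day 18 to day 38. In 2iL-ESCs it was listed at 0 in both libraries of day 18 and 1 of day 25, and had 0.172 FPKM in the other library of day 25 and 5.61 and 6.51 FPKM at day 38. An exact 0 in these files can be a failed estimate, since mt-Atp6, a gene of mitochondrial DNA, is listed at 0 in 9 of the libraries and reaches 2280 FPKM in another. At day 38, where no library of Egr1 is at 0, its log2 difference was 3.73. Fos, another immediate-early gene, had 13.1 to 42.3 FPKM (median 18.8) in OSKM-ESCs and 0.556 to 6.401 FPKM (median 1.47) in 2iL-ESCs. Neither gene overlapped between media. Dusp6, a phosphatase that inactivates ERK, had 29.5 to 41.3 FPKM (median 36.3) against 5.01 to 6.68 FPKM (median 5.65), a log2 difference of 2.45 ± 0.10 (SE; limma adjusted p = 3.19e-09). Dusp4, of the same family, had 15.8 to 23.6 FPKM (median 21.2) against 0.497 to 1.93 FPKM (median 0.996). The feedback inhibitors Spred1, with 15.7 to 27.1 FPKM (median 18.4) against 5.30 to 8.19 FPKM (median 7.43), and Spry4, with log2 differences of 1.54, 2.45 and 1.71 by day, also rose. The other 3 were Dusp5, Phlda1 and Spred3. Over all days 12 were higher and 1 lower, Ier3, an immediate early response gene, at -1.19, and Epha4, an ephrin receptor, was lower at day 25, at -1.41. Of the 9, 5 remained without the genes whose MEF level exceeded that of OSKM-ESCs.

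Targets of LIF/STAT3 moved mostly down among the genes called on every day. Of 15 tested, 5 were lower (among them Socs3, Bcl3, Stat3 and Lifr) and 1 was higher (Junb) on every day. The shares over all genes were 3.02% and 3.24%. The median log2 difference of the list was -0.35. Socs3, the feedback inhibitor of JAK, had 4.35 to 6.06 FPKM in OSKM-ESCs (median 5.08) and 33.2 to 49.2 FPKM in 2iL-ESCs (median 48.2), a log2 difference of -2.86 ± 0.08 (SE; limma adjusted p = 4.06e-10). Bcl3, a partner of NF-kappaB, had 2.05 to 4.68 FPKM (median 2.56) against 26.3 to 41.9 FPKM (median 31.7). Stat3 itself had 4.97 to 7.02 FPKM (median 6.51) against 23.7 to 35.5 FPKM (median 26.9). The genes of the receptor, the signal transducer and its inhibitor were all lower in every OSKM library, which their calls on every day all but fix. Lifr, the LIF receptor, had 1.46 to 2.16 FPKM (median 1.97) against 5.34 to 7.25 FPKM (median 5.82). Junb, an AP-1 factor that many pathways induce, had 10.5 to 38.0 FPKM (median 17.0) against 4.60 to 6.54 FPKM (median 5.11), and its call was lost without the second 2iL-ESC library of day 25.

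WNT targets moved both ways and with day. Of 17 tested, 3 were higher (T, Ccnd2 and Wnt3) and 1 lower (Notum) on every day, against 3.24% and 3.02% of all genes. In 10 the difference varied between days, against 14.6% of all genes. Notum, a secreted enzyme that inactivates WNT ligands, had 2.39 to 8.19 FPKM in OSKM-ESCs (median 3.19) and 9.15 to 29.3 FPKM in 2iL-ESCs (median 17.8). Axin2, a feedback inhibitor, had log2 differences of -1.28, -1.44 and 0.11 at days 18, 25 and 38. Cdx1 had -2.24, -3.60 and 0.77 and Sp5, a WNT-responsive repressor, -1.09, -1.78 and 1.21. These 3 genes lay below 2iL-ESCs at days 18 and 25 and at or above them at day 38. Ccnd2, the cyclin D2 of G1 phase, had 2.39 to 17.8 FPKM (median 4.87) against 0.0988 to 0.516 FPKM (median 0.348), and 175.5 FPKM in MEF cells. The ligand gene Wnt3 had 2.27 to 4.44 FPKM (median 3.48) against 0 to 0.163 FPKM (median 0.0968).

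Targets of NODAL and BMP had a median log2 difference of 0.10. Of 15 tested, 3 were higher and 0 lower on every day, against 3.24% and 3.02% of all genes. They included Lefty1 (above) and Id2, an inhibitor of bHLH factors, with 6.01 to 12.7 FPKM in OSKM-ESCs (median 9.69) and 0.516 to 2.61 FPKM in 2iL-ESCs (median 0.897). Tdgf1, the NODAL co-receptor, was lower, with 159 to 194 FPKM (median 171) against 289 to 497 FPKM (median 432), but missed the 2-fold rule at day 18, with a log2 difference of -0.84. Only 2 of the 3 calls higher remained without the genes higher in MEF cells, and without the second OSKM-ESC library of day 25 the count was 1.

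**Figure D3:**
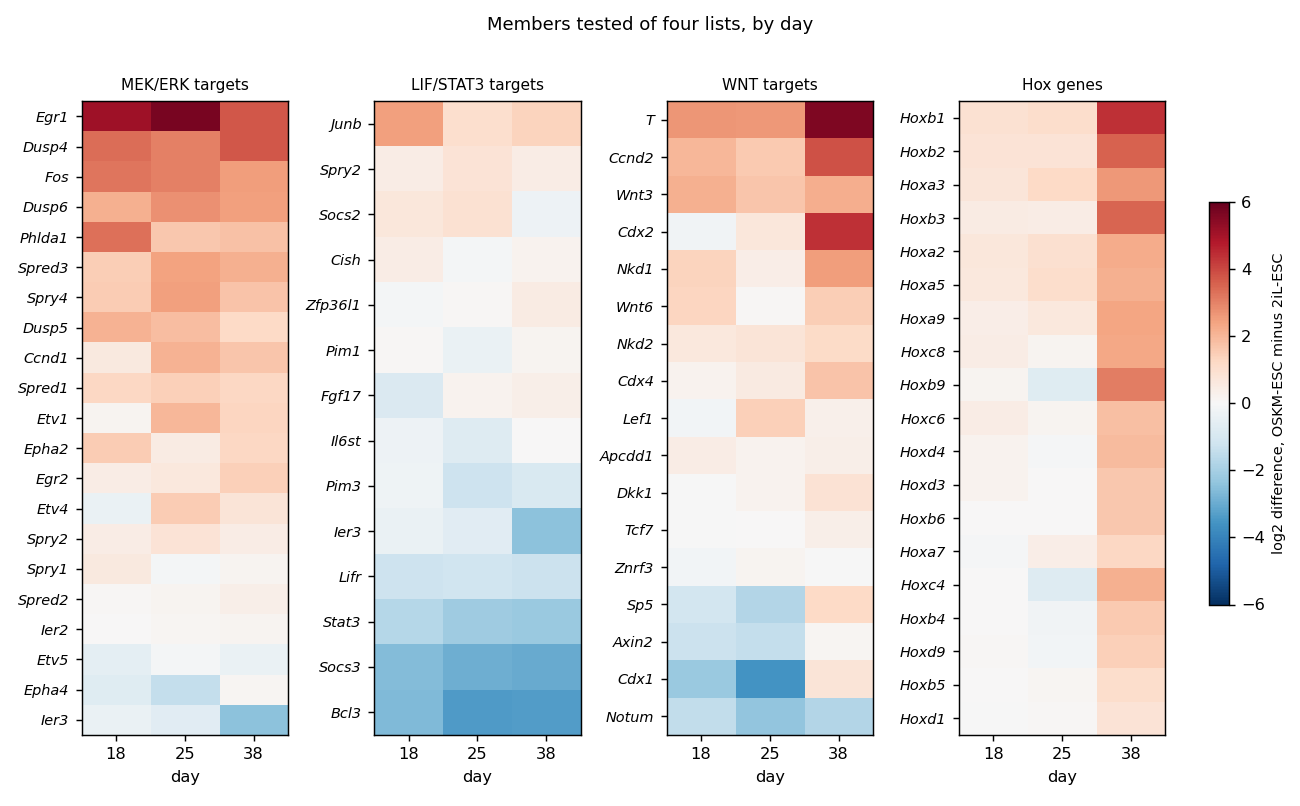
Log2 difference in log2(FPKM + 1), OSKM-ESC minus 2iL-ESC, at days 18, 25 and 38 (columns) for members tested of 4 lists (rows, ordered by the difference over all days). Red is higher and blue lower in OSKM-ESCs. Genes called on every day keep their sign by the rule of the call itself. Axin2, Cdx1 and Sp5 change sign between days, and the Hox genes stand out at day 38.

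Genes of the formative and primed epiblast had the highest share of members higher among all lists. Of 18 tested, 10 were higher and 0 lower on every day, against 3.24% and 3.02% of all genes. The median log2 difference was 1.91 over all days. The median was 1.35 at day 18, 2.04 at day 25 and 2.18 at day 38. Pou3f1, a POU factor of the formative epiblast, had 8.77 to 35.2 FPKM in OSKM-ESCs (median 17.6) and 0.543 to 2.84 FPKM in 2iL-ESCs (median 0.651), with log2 differences of 2.35, 4.42 and 2.66 by day. Otx2, a homeobox factor of the same state, had 8.67 to 14.6 FPKM (median 12.3) against 0.282 to 0.865 FPKM (median 0.408). Fgf5, the classical epiblast marker, had 2.41 to 6.10 FPKM (median 3.86) against 0 to 0.0855 FPKM, with most 2iL libraries listed at 0. Sox4, an HMG-box factor, had 9.62 to 20.5 FPKM (median 16.2) against 2.28 to 5.53 FPKM (median 3.59). Pim2, Dusp6, Sox3, Car14, Cdh2 and Fgf15 were the others, and 8 of the 10 remained without genes higher in MEF cells.

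Other pluripotency genes were called lower more often than higher. Of 34 tested, 11 were lower on every day (Dppa5a, Spp1, Fbxo15, Alpl, Dppa3, Tex19.1, Nr5a2, Tcl1, Tbx3, Jam2 and Prdm14). On every day 3 were higher (Epcam, Lefty1 and Lin28b). The shares over all genes were 3.02% and 3.24%, and the median log2 difference of the list was -0.69. Prdm14, which represses FGF signalling and DNA methylation, had 0.565 to 0.916 FPKM in OSKM-ESCs (median 0.645) and 7.91 to 13.5 FPKM in 2iL-ESCs (median 10.2). Nr5a2, a nuclear receptor that can replace Oct4 in reprogramming, had 3.13 to 5.13 FPKM (median 4.05) against 26.1 to 28.9 FPKM (median 28.2). Of the 8 naive genes of the study's heatmap, 7 were lower on every day. Setting aside genes of chromosomes 8, 12 and Y left 4, since it removes members such as Klf2 (chromosome 8) and Esrrb (chromosome 12). Of the 4 genes of the transgene, whose endogenous and transgenic reads the files pool, Myc alone was called on every day, with 67.9 to 141 FPKM (median 107) against 7.57 to 13.6 FPKM (median 9.24). Pou5f1 (Oct4) had 586 to 810 FPKM (median 717) against 596 to 843 FPKM (median 693), with full overlap. Sox2 had 66.8 to 127 FPKM (median 114) against 102 to 228 FPKM (median 156), and Klf4 had 23.8 to 60.5 FPKM (median 40.1) against 28.7 to 96.8 FPKM (median 58.2), both with overlap. At day 25 alone, Sox2 and Klf4 were called lower, with log2 differences of -1.03 and -1.47.

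Imprinted genes are those of which only the copy from 1 parent is normally active. Of 28 tested, 10 rose and none fell on every day, against 3.24% and 3.02% of all genes. Over all days 14 were higher and 2 lower, against 6.91% and 5.75%. The median log2 difference of the list was 0.99, and 24 of the 28 lay above 0. Nnat, a membrane proteolipid, had 58.8 to 94.3 FPKM in OSKM-ESCs (median 79.9) and 4.91 to 7.89 FPKM in 2iL-ESCs (median 7.09), a log2 difference of 3.40 ± 0.07 (SE; limma adjusted p = 5.84e-11). Grb10, an adaptor that dampens insulin signalling, had 41.3 to 74.2 FPKM (median 60.3) against 6.01 to 11.2 FPKM (median 7.08). Cdkn1c, the growth-restraining CDK inhibitor p57, had 17.7 to 41.6 FPKM (median 21.8) against 1.10 to 3.16 FPKM (median 2.59). Neither overlapped between media. Phlda2, a restraint on placental growth, had 33.8 to 45.9 FPKM (median 37.3) against 14.2 to 16.7 FPKM (median 14.9). The neighbours Igf2, a fetal growth factor, and H19, a noncoding RNA, which are normally active on opposite parental copies, were both higher, with log2 differences of 4.24 ± 0.20 and 2.25 ± 0.12 (SE). The opposed neighbours Dlk1, with 2.88 to 10.8 FPKM (median 6.85) against 0.192 to 0.954 FPKM (median 0.573), and Meg3, with 85.3 to 286 FPKM (median 189) against 50.05 to 80.1 FPKM (median 74.3), were also both higher. Rian, a further noncoding RNA of that cluster, had 193 to 488 FPKM (median 282) against 90.5 to 114 FPKM (median 100). This cluster lies on chromosome 12, and the log2 differences of Meg3 of 0.68, 1.24 and 1.92 and of Rian of 0.85, 1.60 and 2.25 grew with day. Igf2 and H19 stood at 1141 and 1959 FPKM in MEF cells, and 6 of the 10 calls remained without genes higher there.

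Germline genes that were called on every day were all lower. Of 24 tested, 7 were lower and 0 higher on every day, against 3.02% and 3.24% of all genes. The median log2 difference was -0.95. Dazl, an RNA-binding protein of germ cells, had 0.104 to 1.004 FPKM in OSKM-ESCs (median 0.361) and 6.67 to 11.7 FPKM in 2iL-ESCs (median 9.27). Hormad1, of the meiotic chromosome axis, had 0.216 to 1.49 FPKM (median 0.515) against 7.47 to 15.01 FPKM (median 9.39). Zp3, of the coat of the oocyte, had 0.988 to 2.41 FPKM (median 1.26) against 13.7 to 38.2 FPKM (median 22.8). Each was higher in every 2iL library than in any OSKM library, which its call on every day all but fixes. Stk31, a testis kinase, had 0.155 to 0.627 FPKM (median 0.279) against 2.14 to 7.05 FPKM (median 4.41), and Tuba3a, a testis tubulin, 0.265 to 2.60 FPKM (median 0.964) against 10.1 to 19.8 FPKM (median 15.8). Rpl10l and Sohlh2 were the others, and Rpl10l, a testis copy of a ribosomal protein gene, shares sequence with that gene, so its level is uncertain. Sycp3, of the synaptonemal complex, had 0.278 to 2.07 FPKM (median 0.701) against 2.86 to 7.41 FPKM (median 4.21) and missed the 2-fold rule at day 18. At day 25, 5 germline genes were higher and 9 lower, against 6.07% and 8.18% of all genes, so the list did not move as one.

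The E-box letters CACGTG, which read the same on both strands and are known to be bound by MYC, MAX and related factors, were in the promoters of 10 of the 20 germline genes tested that had a promoter in RefSeq (build GRCm38.p6), against 11.9% of the 10197 such genes tested. A promoter was taken as 250 bases before to 50 after a gene start, and any start of a gene counted. The letters were as common in the germline genes lower on every day without the fold criterion (5 of 10) as in the others (5 of 10). Of genes higher on every day 6.99% held them and of genes lower 12.3%. The promoters below are shown because these members share the letters and were lower on every day, with or without the fold criterion. They are not all of the 5 lower germline genes with the letters. The letters are in capitals, and the first base of each is at the given distance from the gene start.

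Hormad1, chr3:95559427-95559726, plus strand, at -57 and -20: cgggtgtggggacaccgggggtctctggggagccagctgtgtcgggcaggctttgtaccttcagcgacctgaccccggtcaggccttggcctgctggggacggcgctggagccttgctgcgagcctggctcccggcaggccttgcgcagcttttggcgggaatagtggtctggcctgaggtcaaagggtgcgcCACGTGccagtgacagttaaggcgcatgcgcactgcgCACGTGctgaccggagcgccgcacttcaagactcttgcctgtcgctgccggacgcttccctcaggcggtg

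Stk31, chr6:49395289-49395588, plus strand, at -55: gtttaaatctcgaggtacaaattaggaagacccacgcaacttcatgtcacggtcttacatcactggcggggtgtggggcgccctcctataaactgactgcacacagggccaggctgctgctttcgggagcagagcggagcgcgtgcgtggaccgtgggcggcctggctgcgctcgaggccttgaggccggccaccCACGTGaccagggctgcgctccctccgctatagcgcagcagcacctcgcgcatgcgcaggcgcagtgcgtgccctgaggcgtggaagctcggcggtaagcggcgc

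Sycp3, chr10:88459337-88459636, plus strand, at -64 and -43: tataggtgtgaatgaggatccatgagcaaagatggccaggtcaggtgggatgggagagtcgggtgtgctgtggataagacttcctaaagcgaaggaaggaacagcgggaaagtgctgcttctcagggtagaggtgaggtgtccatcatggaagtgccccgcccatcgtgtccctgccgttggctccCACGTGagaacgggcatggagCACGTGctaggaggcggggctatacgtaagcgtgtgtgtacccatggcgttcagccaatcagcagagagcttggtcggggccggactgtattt

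Zp3, chr5:135979855-135980154, plus strand, at -181: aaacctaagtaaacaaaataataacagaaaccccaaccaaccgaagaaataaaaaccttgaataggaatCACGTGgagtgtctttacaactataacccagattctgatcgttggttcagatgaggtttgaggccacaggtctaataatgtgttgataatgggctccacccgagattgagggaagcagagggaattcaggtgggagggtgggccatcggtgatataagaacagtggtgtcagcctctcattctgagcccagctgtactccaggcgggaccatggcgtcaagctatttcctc

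In Hormad1, Stk31 and Sycp3 the letters lay within 100 bases of the gene start, whereas in Zp3 they lay farther away. Other letters were searched on both strands in the same windows. CCGGAAG, known for ETS factors, was in 7.29% of promoters of genes higher and 10.6% of genes lower on every day, against 20.2% of all. CTTTGAT, known for TCF/LEF, was in 2.43% and 3.08%, against 3.05%, and TTCCNNGAA, known for STAT, in 3.65% and 6.51%, against 5.23%. Of 12 LIF/STAT3 targets with a promoter, 1 held the STAT letters. A match is not evidence of binding.

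Genes of the oocyte and of the 2-cell embryo had the highest share of members lower after the naive genes. Of 15 tested, 12 were lower and none higher on every day, against 3.02% and 3.24% of all genes. The median log2 difference was -2.11. Khdc3, of the maternal complex under the oocyte membrane, had 0 to 0.454 FPKM in OSKM-ESCs (median 0.0171) and 13.1 to 19.14 FPKM in 2iL-ESCs (median 14.6), and its log2 difference lay between -3.96 and -3.88 on all days. Ooep, of the same complex, had 0.941 to 2.703 FPKM (median 2.25) against 13.4 to 21.3 FPKM (median 14.0). Obox6, a homeobox gene of the early embryo, had 7.87 to 23.1 FPKM in 2iL-ESCs (median 9.18) and was listed at 0 in all but 1 OSKM library, which had 0.0703 FPKM. Crxos, a further homeobox gene, fell by 4.05 ± 0.14 (SE; limma adjusted p = 1.31e-09) on the log2 scale. Zscan4c and Zscan4f, marker genes of the 2-cell-like state, had 2.95 to 8.45 FPKM (median 5.05) and 3.11 to 9.69 FPKM (median 4.25) in 2iL-ESCs and at most 0.306 and 0.358 FPKM in OSKM-ESCs. The 6 Zscan4 genes called are near-identical copies whose reads can be split among them. In bulk RNA, fewer cells in this state and less RNA per cell cannot be told apart.

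**Figure D4:**
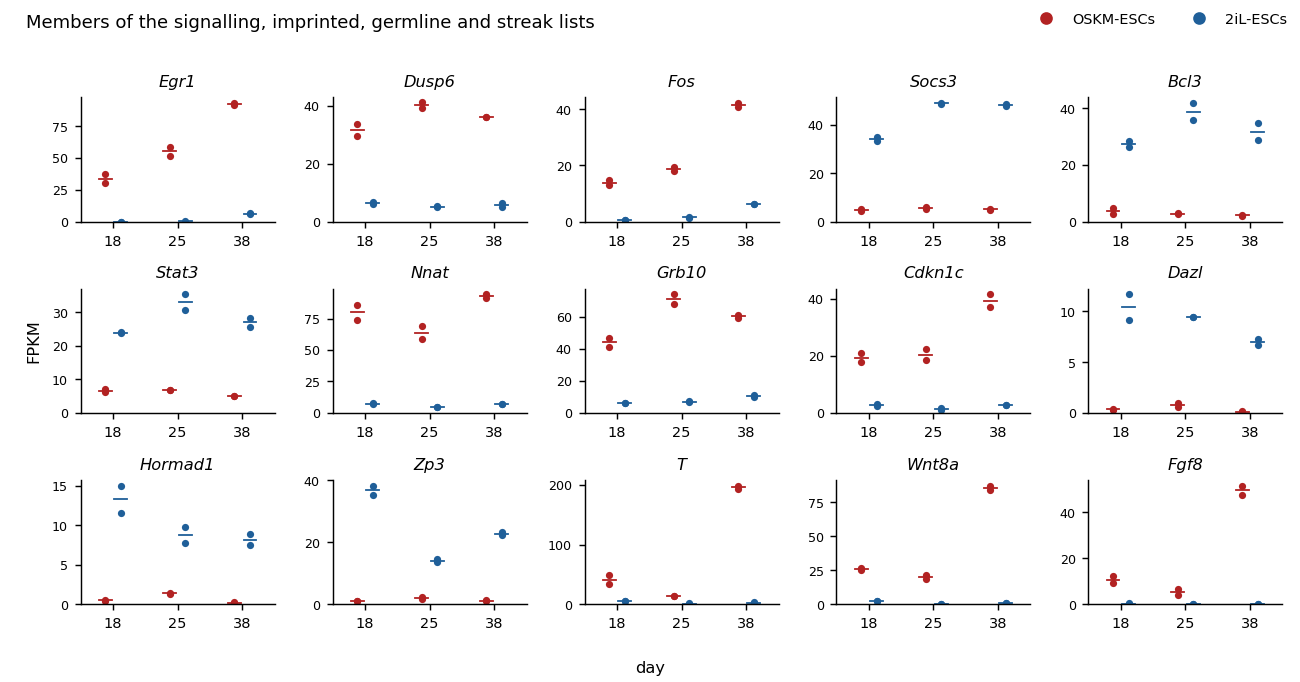
FPKM (vertical axes, from 0) by day (horizontal axes) of 15 members of the signalling, imprinted, germline and primitive streak lists. Points are single libraries (red for OSKM-ESCs, blue for 2iL-ESCs) and bars means of 2. Socs3, Bcl3, Stat3, Dazl, Hormad1 and Zp3 are lower in every OSKM library, which their calls on every day all but fix. T, Wnt8a and Fgf8 are highest at day 38.

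Genes of actin filaments, adhesion and matrix gave the most genes called higher. Of 44 genes of the actin cytoskeleton and focal adhesions, 13 were higher and 1 lower on every day, with a median log2 difference of 0.44. The shares of all genes called so were 3.24% and 3.02%. Zyx, a focal adhesion protein, had 27.4 to 54.9 FPKM in OSKM-ESCs (median 47.1) and 3.27 to 5.67 FPKM in 2iL-ESCs (median 4.47). Cnn2, the calponin of non-muscle cells, had 31.6 to 64.5 FPKM (median 43.9) against 9.69 to 11.8 FPKM (median 10.1), and Myh10, a non-muscle myosin, 28.7 to 48.6 FPKM (median 38.0) against 12.5 to 16.2 FPKM (median 15.7). Capn1, a calcium-dependent protease, was the 1 lower gene, with 5.56 to 11.1 FPKM (median 8.75) against 22.4 to 35.0 FPKM (median 26.3), and its call was lost without the first OSKM-ESC library of day 18. Of 20 targets of serum response factor and YAP, 4 were higher and 0 lower (Ccn1, Ptpn14, Acta2 and Acta1), and all 20 lay above 0 over all days, with a median of 0.90. Ccn1, a secreted matrix protein, had 26.5 to 46.3 FPKM (median 40.9) against 8.53 to 11.7 FPKM (median 9.14). Acta2, smooth muscle actin, had 5.68 to 38.3 FPKM (median 10.5) against 0.147 to 1.204 FPKM (median 0.271).

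Of 31 proteoglycan and matrix genes, 14 were higher and 0 lower on every day, against 3.24% and 3.02% of all genes. The median log2 difference was 1.16. Col18a1, a basement membrane collagen, had 64.0 to 141 FPKM in OSKM-ESCs (median 84.7) and 16.01 to 32.2 FPKM in 2iL-ESCs (median 21.7), with log2 differences between 1.90 and 2.12 on all days. Gpc1, a heparan sulfate proteoglycan, had 12.04 to 19.5 FPKM (median 17.4) against 2.28 to 4.37 FPKM (median 2.96). Among 17 annexin, S100 and galectin genes 3 were higher and 0 lower on every day. S100a6, a calcium-binding protein, had 11.2 to 98.2 FPKM (median 13.4) against 0.431 to 3.43 FPKM (median 0.898). Anxa3 and Anxa1, membrane-binding annexins, had log2 differences of 3.79 at day 18 in both and of 2.59 and 1.25 at day 38. In 15 of the 17 the difference varied between days, against 14.6% of all genes. Lgals1, the most abundant galectin, had 93.5 to 462 FPKM (median 110) against 72.0 to 124 FPKM (median 79.4), with overlap.

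These groups moved together with fibroblast markers. Of 14 fibroblast markers tested, 3 were higher on every day (Col1a1, Col1a2 and Col3a1) and 0 lower, with a median log2 difference of 0.97. The shares of all genes called so were 3.24% and 3.02%. Col1a1, a collagen whose locus carries the transgene, had 4.02 to 10.7 FPKM in OSKM-ESCs (median 5.42), 1.05 to 1.52 FPKM in 2iL-ESCs (median 1.15) and 564 FPKM in MEF cells. Thy1, a surface marker of fibroblasts, had 3.41 to 5.41 FPKM (median 4.18), 1.36 to 2.24 FPKM (median 1.59) and 96.6 FPKM. Without the genes whose MEF level exceeded that of OSKM-ESCs, the counts of genes higher on every day became 0 for actin and adhesion, 0 for serum response factor and YAP, 0 for annexins, 0 for fibroblast markers and 1 for the matrix (Col18a1). This setting drops genes by their MEF level alone. The 0 counts thus say only that each member called had a higher FPKM in MEF cells than in OSKM-ESCs. For the fibroblast markers, picked as genes of fibroblasts, this was all but fixed in advance. The part of feeder cells in these calls was not tested. Gm48529, second in size among the rises called on every day, had 20.9 to 86.4 FPKM (median 46.2) against 0.627 to 2.38 FPKM (median 0.863) and 539 FPKM in MEF cells. It lies antisense to Tagln, an actin-binding gene of smooth muscle, on chromosome 9, and since the library kit does not mark strand, reads of the pair cannot be told apart.

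Epithelial genes that rose were not those higher in fibroblasts. Of 19 tested, 6 were higher and 1 lower (Lama3) on every day, against 3.24% and 3.02% of all genes. The median log2 difference was 1.22, and all 6 remained without genes higher in MEF cells. Cldn6, a tight junction protein of early epithelia, had 41.2 to 123 FPKM in OSKM-ESCs (median 61.1), 3.92 to 7.19 FPKM in 2iL-ESCs (median 6.54) and 0.0310 FPKM in MEF cells. Krt8 and Krt18, the keratins of simple epithelia, had log2 differences of 5.84 and 5.48 at day 18, 2.45 and 2.37 at day 25, and 3.48 and 2.58 at day 38. Of 13 mesenchymal genes 4 were higher (Mmp14, Cdh2, Mmp2 and Zeb2) and 0 lower, and none of the 4 remained without genes higher in MEF cells. Cdh2 (N-cadherin) had 3.49 to 16.7 FPKM (median 5.21) against 0.451 to 1.25 FPKM (median 0.735), Mmp14, a membrane-bound protease, had 21.5 to 34.5 FPKM (median 28.8) against 6.30 to 8.51 FPKM (median 8.31), and Zeb2, a repressor of E-cadherin, had 1.43 to 5.40 FPKM (median 1.96) against 0.0276 to 0.116 FPKM (median 0.0568).

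Genes of the primitive streak and mesoderm and the Hox genes had their largest median differences at day 38. This was not particular to them, since the endoderm, neural and mesenchymal lists also had their largest medians then, at 1.22, 1.09 and 1.36. Of 11 primitive streak and mesoderm genes tested, 2 (T and Wnt3) were higher on every day and 8 at day 38. The shares over all genes were 3.24% and 9.76%. The summed level of all 16 genes listed, tested or not, was 43.7 and 60.9 FPKM in the OSKM-ESC libraries of day 18, 20.1 and 21.2 FPKM at day 25, and 241.4 and 245.5 FPKM at day 38, against 7.8 to 11.2 FPKM in 2iL-ESCs. T (Brachyury), the streak factor, ranged from 13.3 to 198 FPKM (median 41.6) against 1.18 to 6.35 FPKM (median 3.08). With 193.9 and 198.5 FPKM in the OSKM-ESC libraries of day 38, T made up most of the sums of that day. Fgf8 and Wnt8a, ligands of the streak, had log2 differences of 3.21 and 2.87 at day 18, 2.44 and 3.87 at day 25, and 5.46 and 5.52 at day 38. Tbx6 and Msgn1, factors of presomitic mesoderm, had differences of 3.53 and 3.60 at day 38 and of -0.23 to 0.34 before. Of 20 Hox genes, which pattern the body axis, none was called on every day and 19 were higher at day 38, where their median was 2.12, against 0.31 and 0.15 at days 18 and 25. Hoxb1 had 0.988 to 20.8 FPKM (median 1.24) against 0 to 0.235 FPKM (median 0.0220). Cdx2, a caudal homeobox factor, had log2 differences of -0.22, 0.67 and 4.41.

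Endoderm, trophoblast and neural genes were called on every day in 4, 2 and 3 cases, all higher, against 3.24% of all genes. At day 38, 7 of 11 endoderm, 4 of 12 trophoblast and 9 of 16 neural genes were higher, against 9.76% of all genes. At that day 0, 0 and 1 were lower, against 6.34%. Of 11 endoderm genes, the 4 higher on every day (Lamb1, Col4a1, Col4a2 and Dab2) encode basement membrane proteins and an adaptor, all with MEF levels above OSKM-ESCs. Over all days, 9 of the 11 lay above 0 and 2 below. Of the genes listed, Afp and Hnf4a were at 0 in all OSKM libraries and Foxa1 and Ttr in all 2iL libraries, which can be a failed estimate. Lamb1 had 22.0 to 33.7 FPKM (median 32.4) against 2.92 to 7.90 FPKM (median 6.11). Of 12 trophoblast genes, the 2 higher on every day were Krt8 and Krt18, which are also on the epithelial list. The summed level of all 16 genes listed was 343.3 and 348.2 FPKM in OSKM-ESCs at day 18. It was 61.9 to 123.0 FPKM on the later days and 24.8 to 37.7 FPKM in 2iL-ESCs. Most of the day 18 sums came from these keratins, Krt8 with 179.2 and 195.2 FPKM and Krt18 with 114.6 FPKM in both libraries. Of 16 neural genes, 3 were higher on every day (Nefl, Nes and Sox11) and Sox1 and Neurog2 were listed at 0 in all libraries of both media. Nes stood at 22.5 FPKM in MEF cells, above its OSKM-ESC mean of 15.5 FPKM. Nefl, a neurofilament, had 30.7 to 52.3 FPKM (median 45.5) against 3.99 to 13.9 FPKM (median 8.20), and Sox11, an HMG-box factor, 7.94 to 19.8 FPKM (median 12.3) against 0.867 to 2.62 FPKM (median 1.96). Tubb3, a neuronal tubulin, was lower, with 24.8 to 33.5 FPKM (median 29.1) against 41.9 to 62.5 FPKM (median 55.9). No lineage gene was lower by the 2-fold rule on every day.

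Metabolic genes moved by less. Of 25 glycolysis genes, 1 was lower and 0 higher on every day, against 3.02% and 3.24% of all genes. Without the fold criterion, 8 were lower and 1 higher on every day, against 11.4% and 13.8% of all genes. The median log2 difference was -0.06 at day 18, -0.65 at day 25 and -0.62 at day 38. Pfkp, a phosphofructokinase, had 8.85 to 14.3 FPKM in OSKM-ESCs (median 10.2) and 44.9 to 117 FPKM in 2iL-ESCs (median 111). Hk1, the hexokinase at the entry of the pathway, had 7.28 to 8.70 FPKM (median 8.05) against 13.1 to 51.0 FPKM (median 27.3). The abundant Gapdh, Pkm and Eno1 were not called, with log2 differences of -0.21, -0.27 and -0.14. Of 75 nuclear respiratory chain genes, 1 was lower (Cox7a1, a heart and muscle subunit of cytochrome oxidase, with 1.25 to 2.35 FPKM against 8.29 to 15.2 FPKM) and 0 higher, while 13 were lower and 1 higher without the fold criterion. Atp5b and Atp5a1, subunits of ATP synthase, had log2 differences of -0.33 ± 0.05 and -0.36 ± 0.06 (SE). Of 12 genes of mitochondrial DNA none was called on every day with the fold criterion, while 2 were higher and 1 lower at day 25 and 2 higher at day 38. Over all days, mt-Cytb, mt-Nd5 and mt-Nd6 had log2 differences of 0.63, -0.07 and -0.11. Of 19 genes of the tricarboxylic acid cycle none was called on every day with the fold criterion, 3 were lower on every day without it, and 1 was lower over all days. Idh3g had -0.28, while Pdha1, Pdhb and Mdh2 had 0.16, 0.17 and -0.08.

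On every day, amino acid and lipid genes gave from 0 to 6 calls per list, against 3.24% of all genes called higher and 3.02% lower. The single calls of the serine and cholesterol lists lie near these shares. Of 18 serine, glycine and threonine genes, 1 was higher on every day, Mthfd2l, a mitochondrial folate enzyme, with 5.49 to 9.36 FPKM in OSKM-ESCs (median 8.07) and 0.216 to 0.740 FPKM in 2iL-ESCs (median 0.434). Tdh, the threonine dehydrogenase on which mouse ESCs are known to depend, had 71.0 to 154 FPKM (median 125) against 216 to 392 FPKM (median 302) and just missed the 2-fold rule at day 38, at -0.99. Phgdh and Psat1, of serine synthesis, had log2 differences of 0.48 and 0.15. Of 35 arginine, proline and glutathione genes, 4 were higher (Gsto1, Gstm5, Gpx3 and Gatm) and 2 lower (Ckb and Gss) on every day. Gss, glutathione synthetase, had 6.22 to 9.32 FPKM (median 7.98) against 26.6 to 47.5 FPKM (median 32.9), whereas Gsto1 and Gstm5, glutathione transferases, had log2 differences of 2.05 ± 0.12 and 2.40 ± 0.17 (SE). Gsto1 and Gstm5 stood at 445.8 and 33.1 FPKM in MEF cells, above their OSKM-ESC means of 38.6 and 13.5 FPKM. Arg1, the urea cycle arginase, had log2 differences of 1.95, 0.58 and 5.46 by day and so missed the 2-fold rule at day 25. Of 25 cholesterol synthesis genes, 1 was higher and 0 lower on every day, with a median log2 difference of 0.23. Hmgcs1, Fdps and Srebf2 had 0.44, 0.15 and -0.17. Of 16 fatty acid genes none was called on every day by the 2-fold rule, while 2 were higher at day 18 and 4 lower at day 25, Scd2 among them at -1.004. Over all days the differences were Acly at -0.42, Scd2 at -0.35, Fasn at -0.06 and Fads2 at 0.08.

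Genes of protein synthesis and division mostly differed little in size. None of 79 cytosolic ribosomal protein genes and none of 34 ribosome biogenesis genes was called with the fold criterion, and their median log2 differences were -0.09 and 0.02. Without it, 3 of the former were lower and 1 of the latter was higher, against 11.4% and 13.8% of all genes. Over all days, 62 of the 79 ribosomal protein genes lay below 0 and 17 above. Rps2, Rplp0, Rplp1, Npm1, Ncl, Fbl and Nop56 lay between -0.06 and 0.14, and Rpl13a was at -0.33. None of 26 S and G2/M phase genes was called with the fold criterion and 1 was lower without it. Cdc20 had a difference of 0.38, Ube2c 0.11, Pcna -0.09 and Rrm2 -0.18. Of 21 G1 cyclins and CDK inhibitors, Cdkn1c and Ccnd2 were higher on every day, against 3.24% of all genes. The abundant Cdk4 and Ccne1 had 0.27 and -0.06. Among 7 genes of LIN28, IGF2BP and HMGA proteins, 1 was higher, Lin28b, a blocker of let-7 processing, with 15.6 to 23.1 FPKM in OSKM-ESCs (median 19.3) and 4.28 to 7.34 FPKM in 2iL-ESCs (median 5.88). Lin28a had 121 to 180 FPKM (median 162) against 36.7 to 85.9 FPKM (median 57.7), Hmga1 a log2 difference of 0.38 and Igf2bp1 of -0.27.

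Genes of DNA methylation and Polycomb gave no call with the fold criterion on every day. The difference varied between days in 5 of 16 DNA methylation genes and in 2 of 25 Polycomb genes, against 14.6% of all genes. Of the 16 DNA methylation genes, 3 were higher and 5 lower on every day without the fold criterion, against 13.8% and 11.4% of all genes. Dnmt3b and Dnmt3a, which set new methylation, had log2 differences of 0.45 and 0.75 at day 18, 2.85 and 2.29 at day 25, and 0.80 and 0.87 at day 38. Dnmt3l, their cofactor, had -2.25, 1.27 and -2.74, so it was higher at day 25 alone. Uhrf1, which couples methylation to replication, had 94.3 to 155 FPKM in OSKM-ESCs (median 142) and 192 to 218 FPKM in 2iL-ESCs (median 213). Zfp57 and Trim28, which keep methylation at imprinted loci, had log2 differences of -1.04 ± 0.12 and -0.42 ± 0.12 (SE). Of 25 Polycomb genes, 6 were higher and 6 lower without the fold criterion. Cbx7, the main chromobox protein of ESCs, had 47.7 to 88.6 FPKM (median 54.3) against 96.4 to 144 FPKM (median 132), and Eed had 76.1 to 95.7 FPKM (median 83.3) against 132 to 196 FPKM (median 144). Rbbp7 and Rbbp4, histone-binding subunits, had 0.29 and -0.19.

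Among stress and immune genes, p53 targets and MHC class I genes were called on every day, against 3.24% of all genes higher and 3.02% lower. Of 21 p53 targets, 2 were higher and 0 lower on every day. Pmaip1 (NOXA), a BH3-only protein, had 28.9 to 50.6 FPKM in OSKM-ESCs (median 37.0) and 6.18 to 12.2 FPKM in 2iL-ESCs (median 7.11), and Perp, a membrane protein of desmosomes, 10.5 to 31.7 FPKM (median 15.02) against 1.32 to 3.36 FPKM (median 2.09). Perp stood at 62.35 FPKM in MEF cells, above its OSKM-ESC mean of 19.05 FPKM. Bax and Trp53 differed by 0.03 and 0.04. None of 22 ATF4 and unfolded protein response genes and none of 13 NRF2 and metallothionein genes was called on every day with the fold criterion. In the former 4 were higher at day 18 and 2 lower at day 25, with Asns at -1.35, and in the latter 4 were lower at day 38, with Mt1 at -1.77. Over all days, Hspa5 had 0.67, Hsp90b1 0.21, Calr -0.17 and Asns -0.62 in the former, and Mt1 -0.71, Ftl1 -0.25, Prdx1 -0.19 and Fth1 -0.05 in the latter. Of 24 MHC class I and interferon genes, 3 were higher and 0 lower on every day. At day 18, 9 were higher and 8 lower, against 8.85% and 6.09% of all genes. At day 38, 12 were higher and 0 lower, against 9.76% and 6.34%. H2-K1, a class I chain, had 28.9 to 58.0 FPKM (median 45.8) against 8.68 to 11.6 FPKM (median 10.9), and Psmb8 and Psmb10, of the immunoproteasome, had log2 differences of 2.80 ± 0.33 and 1.38 ± 0.14 (SE). Ifitm2 was at -0.63. Isg15 and Irf7, of the interferon response, had differences of -3.52 and -3.15 at day 18 and of 2.27 and 0.33 at day 38, and reached 44.3 and 10.2 FPKM in 2iL-ESCs, whose day 18 libraries were the high ones. Oas1a and Oas1g, interferon-induced antiviral genes outside the list, were lower on every day, with log2 differences of -4.54, -3.09 and -2.22 and of -3.90, -1.89 and -1.66.

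**Figure D5:**
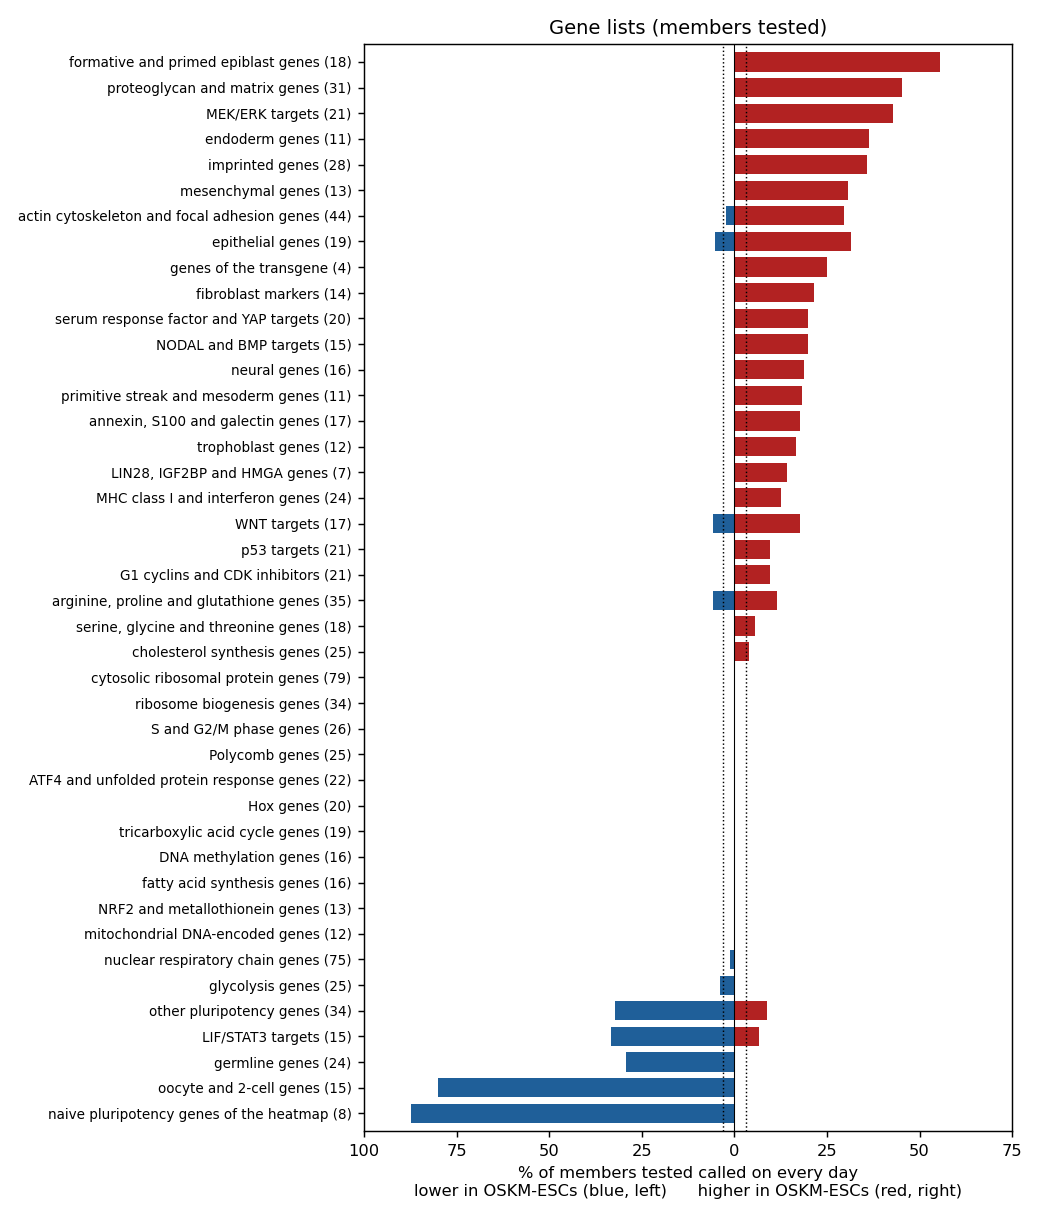
Percent of the members tested that were called on every day (horizontal axis), higher in OSKM-ESCs in red to the right and lower in blue to the left, for each gene list (rows, with the number tested in parentheses). Dotted lines mark the share of all genes tested, 3.24% higher and 3.02% lower; the formative list has the longest red bar and the naive and oocyte lists the longest blue bars.

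The largest differences belonged to few genes. Of the genes higher on every day, 22 had under 1 FPKM on average in 2iL-ESCs and at least 10 FPKM in OSKM-ESCs, among them Igf2, Fgf8, Acta2, Otx2 and Slc39a8, and 18 showed the opposite. Slc39a8, a zinc and manganese transporter, had 8.11 to 19.4 FPKM (median 14.1) in OSKM-ESCs and at most 0.0373 FPKM in 2iL-ESCs. Among genes called on every day with at least 10 FPKM in the higher medium, the 5 largest rises were those of Egr1 (4.84), Gm48529 (4.43), Igf2 (4.24), Pim2 (4.11) and Wnt8a (4.08) on the log2 scale. Egr1 was listed at 0 in 3 of the 2iL-ESC libraries, and at day 38, without such values, its difference was 3.73. The 5 largest falls were those of 1700013H16Rik (-4.88), Rpl10l (-4.37), Aqp3 (-4.07), Crxos (-4.05) and Tbx3 (-3.96). Rpl10l shares sequence with another ribosomal protein gene, so its level is uncertain. 1700013H16Rik, on chromosome X, had 0 to 0.793 FPKM (median 0.196) against 30.6 to 44.4 FPKM (median 35.1). Aqp3, a water and glycerol channel, had 1.499 to 1.94 FPKM (median 1.72) against 32.3 to 67.2 FPKM (median 39.7), and its libraries did not overlap. For each of these 10 genes the exact 2-sided permutation test over the 12 libraries gave p = 0.00216, the smallest this design allows. These genes were picked for the size of their differences, which all but fixed this value, so it adds no support. The libraries of the media did not overlap in 451 of the 454 genes higher and 422 of the 423 lower on every day. Over all genes the shares were 14.6% and 12%. The call on every day all but fixes this gap, so it adds no support either. The difference varied between days in 148 of these 454 genes and 127 of these 423, against 14.6% of all genes. Where it varied, it was largest at day 18 in 100 genes, at day 25 in 69 and at day 38 in 106.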

How the data were processed

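RNA was extracted with TRIzol, poly-A selected and sequenced. The authors aligned reads to GRCm38 with STAR 2.7.1a, kept uniquely mapped reads, and deposited StringTie 2.0 FPKM per gene, with TPM and mean coverage (a signal without normalization). Cuffdiff 2.2.1, which the authors used for DEGs, needs reads and was not used here. FPKM was analysed as deposited for 55469 of 55471 genes. The other 2, U2surp and St13, had a failed value in a library. Of gene symbols with more than 1 identifier, the most abundant was taken for the lists. Coverage per FPKM, 2.99 to 3.59, gives no depth in reads.

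The 14016 genes above 1 FPKM in any of the 12 libraries were tested on the log2(FPKM + 1) scale with limma 3.58.1 in R 4.3.3 (lmFit; eBayes, trend on), once with medium and day as additive terms and once with 1 mean per condition (6 conditions) for single days and the interaction. Adjusted p is Benjamini-Hochberg over these 14016 genes. Fold changes on this scale understate the change of low genes. Simulated data served as a test of the procedure. Python 3.11.15, pandas 2.3.3, numpy 2.4.6 and matplotlib 3.10.9 were used for summaries.

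Groups came from the sample titles. The labels do not say whether the 2 libraries of a condition were separate cultures, so p-values measure the spread between these libraries. Replicate numbers were checked for pairing by the correlation of deviations. The members, the gene lists and the rule for naming genes were chosen with earlier results of these data known. The rule names the 10 most abundant genes called on every day in each direction without the heatmap genes, the 5 largest differences in each direction of at least 10 FPKM, up to 4 members of each list (called first, then most abundant), and the largest differences among the 100 most abundant genes. Other genes named were chosen after their values were seen, and some genes the rule names are not reported here. Alternatives were a pseudocount of 0.1, other filters, median-ratio and quantile scaling, TPM, no trend, unadjusted p, all 18 libraries, separate days, a replicate block, no genes higher in MEF cells, and leaving out libraries or days. Counts without chromosomes 8, 12 and Y and every-day counts over pairs of days were added after seeing the data. Promoter sequences came from RefSeq (GRCm38.p6), matched by symbol for 10197 of 14004 genes.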

Additional observations from a re-analysis of the deposited data

Results flagged for a closer look

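The log2 difference between OSKM-ESCs and 2iL-ESCs varied between days 18, 25 and 38 in many named genes, by limma's interaction test with an adjusted p under 0.05 and a range over 1. Each value below is the range of the daily log2 differences (highest minus lowest). That of Egr1 includes 2iL-ESC libraries listed at 0, which can be failed estimates. The difference was largest in size at day 18 for Acta1 1.17, Acta2 1.54, Anxa1 2.55, Anxa3 1.74, Ccne1 1.24, Cldn6 2.02, Hormad1 1.20, Igf2 1.36, Irf7 3.48, Isg15 5.79, Krt18 3.11, Krt8 3.39, Lefty1 2.03, Lgals1 1.52, Obox6 1.42, Perp 1.49, Rhox5 2.73, S100a6 1.42, Slc39a8 1.07, Stk31 1.21 and Zp3 1.80. It was largest at day 25 for Asns 1.23, Ckb 1.78, Dnmt3a 1.55, Dnmt3b 2.40, Egr1 1.97, Esrrb 1.27, Fth1 1.28, Gss 1.03, Hk1 1.77, Klf4 1.55, Lin28a 1.70, Nanog 1.42, Pfkp 1.37, Pim2 2.59, Pou3f1 2.07, Scd2 1.11, Tbx3 1.33, Tead4 1.74 and mt-Cytb 1.03. It was largest at day 38 for Arg1 4.89, Ccnd2 2.24, Cdh2 1.35, Cdkn1c 1.05, Cdx2 4.63, Cited1 2.75, Ddx3y 1.39, Dlk1 1.62, Dnmt3l 4.01, Dppa5a 1.22, Eomes 1.22, Fgf8 3.02, Gstm5 1.16, Hoxb1 3.50, Hoxb2 2.71, Hoxb9 3.78, Id2 1.43, Meg3 1.24, Mmp2 1.07, Msgn1 3.56, Mt1 1.66, Myc 1.25, Psmb8 2.56, Rian 1.40, Rpl10l 1.86, Sox11 1.02, Spp1 1.13, T 3.01, Tbx6 3.76, Upp1 1.22, Wnt8a 2.65, Zeb2 1.16 and Zyx 1.26.

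Single libraries stood apart from the other 5 of their medium by Dixon's criterion, which chance meets in about 1 of 20 groups. They were Acta1 with 0.125 FPKM (highest in 2iL-ESCs, day 38 replicate 2), Bcl3 with 4.68 FPKM (highest in OSKM-ESCs, day 18 replicate 2), Col1a1 with 10.7 FPKM (highest in OSKM-ESCs, day 18 replicate 2), Dnmt3a with 13.3 FPKM (lowest in 2iL-ESCs, day 25 replicate 2), Fgf5 with 0.0855 FPKM (highest in 2iL-ESCs, day 18 replicate 2), Khdc3 with 0.454 FPKM (highest in OSKM-ESCs, day 25 replicate 1), Klf2 with 19.6 FPKM (highest in OSKM-ESCs, day 18 replicate 2), Mt1 with 649 FPKM (highest in 2iL-ESCs, day 18 replicate 1), Obox6 with 0.0703 FPKM (highest in OSKM-ESCs, day 25 replicate 1), Rps2 with 2860 FPKM (highest in 2iL-ESCs, day 18 replicate 1), Sox2 with 66.8 FPKM (lowest in OSKM-ESCs, day 18 replicate 1), Spred1 with 27.1 FPKM (highest in OSKM-ESCs, day 25 replicate 2) and mt-Cytb with 4380 FPKM (highest in OSKM-ESCs, day 25 replicate 2). The 6 libraries of a medium come from 3 days, so such a gap can hold a difference between days. Many named genes in 2 media were open to this criterion, so chance alone can give cases such as these. The values of Acta1, Fgf5, Khdc3 and Obox6 lie under 1 FPKM, where such a gap says little.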

How the results depend on the processing

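With a pseudocount of 0.1, 1813 genes were higher and 1412 lower over all days, and 971 and 772 on every day. TPM gave 1535 and 750 genes higher over all days and on every day. Without genes higher in MEF cells, the counts of genes higher were 504 over all days, 248 on every day and 1035 on every day without the fold criterion, and 1195 differed between days. With calls at days 18 and 38 alone, 778 genes were higher. Among the 100 most abundant genes, the 4 higher became 1 with no filter, median-ratio scaling or separate days and 2 with limma without trend or without genes higher in MEF cells, and the 9 lower became 4 with no filter, 5 with quantile normalization or all 18 libraries and 2 with separate days. Leaving out single libraries gave 1 to 5 higher and 4 to 10 lower. The other counts over all genes stayed within 1.5 times.

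Of 166 named genes called over all days, 149 kept direction and call under every setting that gave a value, 17 lost the call in at least 1, and none changed sign. Sign changes occurred in genes not called over all days. Their log2 differences were Isg15 (0.6572) with a pseudocount of 0.1, Pou5f1 (0.0833), mt-Nd5 (0.0307), Nop56 (0.0564), Rplp1 (0.0981) and Fth1 (0.0177) with quantile normalization, Pou5f1 (0.0330), Nop56 (0.0332), Rplp1 (0.0275) and Isg15 (0.0850) with TPM, Pou5f1 (0.0048), Fasn (0.1002), Npm1 (0.0323), Nop56 (0.0835), Rps2 (-0.0060), Ccne1 (0.2712), Fth1 (0.0962) and Isg15 (1.3409) without day 18, Klf4 (0.0302), Tead4 (0.2933), mt-Nd6 (0.0108), Ncl (-0.0445), Fbl (-0.0359), Ube2c (-0.0057), Trp53 (-0.2097) and Bax (-0.1888) without day 25 and Pou5f1 (0.1081), Eomes (-0.1335), Fads2 (-0.0169), Rplp1 (0.0497), Mdh2 (0.0298), Fth1 (0.2004) and Hoxb9 (-0.2649) without day 38. Leaving out single libraries gave the ranges Bax (-0.0602 to 0.0885), Ccne1 (-0.1394 to 0.0367), Fasn (-0.1114 to 0.0286), Fth1 (-0.1613 to 0.0216), Isg15 (-0.6390 to 0.1981), Nop56 (-0.0373 to 0.0320), Pou5f1 (-0.0629 to 0.0214), Rplp1 (-0.0753 to 0.0431), Trp53 (-0.0356 to 0.1172), mt-Nd5 (-0.1599 to 0.0202) and mt-Nd6 (-0.2873 to 0.1027). The cause was not tested. With the replicate block, 962 genes were higher and 802 lower over all days, 454 and 424 on every day, and 5 and 11 among the 100 most abundant without the fold criterion. The correlation of same-numbered libraries' deviations was 0.131, 0.0904 and 0.012 at days 18, 25 and 38. These weak values show no clear pairing but cannot exclude it, since each day gives 1 such comparison and the labels do not say. Depth in reads is unknown, so precision at low FPKM rests on replicates alone.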
